A study of Mus musculus with 12 samples.

Results

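The comparison described here set 3 tumours of the chronic stress group against 3 control tumours, 6 of the 12 libraries of a mouse RNA sequencing series, chosen by their group labels. The stress group was made up of mice that carried a subcutaneous colorectal cancer and were under chronic stress, and the control group of mice that carried the same kind of tumour without that exposure. The labels name no transgene, knockout or drug for either group. The other 6 libraries came from stressed mice treated with Xiao-chai-hu decoction at 2 dose levels, and entered only the shared estimate of the spread between libraries. The labels gave neither the tumour cell line, the mouse strain, age and sex, nor the kind and length of the stress. They also did not say whether the 3 replicates of a group were separate animals, so the p-values measure library-to-library spread only, which may be technical in part.

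Stress reaches a tumour mainly through 2 hormone systems. Glucocorticoids from the adrenal cortex bind the glucocorticoid receptor inside the cell, which then moves to the nucleus and switches on genes that hold its response element. Adrenaline and noradrenaline act on beta-adrenergic receptors at the cell surface, which raise cyclic AMP and, through protein kinase A and the transcription factor CREB, switch on genes with cyclic AMP response elements. Both systems are known to alter immune cells, blood vessels and the growth of tumour cells.

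The 6 libraries had total counts from 16734741 to 17477347, with 15476 to 15731 genes above 0. Expression levels are given as counts scaled to library size (CPM), in the order of replicates 1 to 3, and sizes as log2 fold changes of stress over control with their standard error (SE). The tissue label was checked against 20 markers of colorectal epithelium, of which 4 had enough counts to be tested. Krt8 and Krt18, the paired keratins of simple epithelia, reached at most 0.0573 and 0.0586 CPM, and Epcam, an epithelial adhesion molecule, stood at 0.292, 0.641 and 0.172 CPM under stress, against 0.176, 0.581 and 0.18 CPM in controls. Cldn4, Car1, Guca2a and Fabp1 had 0 counts in all 6 libraries. Cdh1, the epithelial cadherin, was present at 7.00, 10.4 and 4.01 CPM in the stress tumours, against 7.85, 10.8 and 8.29 CPM in the controls. Vim, the mesenchymal intermediate filament protein, stood at 2931, 3123 and 3242 CPM in the stress tumours, against 3098, 3305 and 3115 CPM in the controls. Lgals4, galectin 4 of the gut lining, stood at 10.3, 17 and 8.48 CPM in the stress tumours, against 7.85, 9.36 and 10.7 CPM in the controls. In all, 17 of the 20 markers stayed under 1 CPM in all 6 libraries. Most markers were therefore nearly absent in both groups, and the samples are called tumours here by their label only.

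Some libraries stood apart from the rest of their group. In control replicate 1, transcripts of skeletal muscle were high. Acta1, the actin of skeletal muscle, stood at 8.22, 0.117 and 0.172 CPM under stress, against 64.2, 0.291 and 4.98 CPM in controls, and the 25 muscle markers summed to 9.27 to 73.3 CPM in the stress tumours and 11.6 to 357 CPM in the controls, with 0 of the 25 markers at 0 in all libraries. Their median log2 fold change was -1.92, and 0.33 without control replicate 1 or -4.60 without stress replicate 1. Stress replicate 3 had high Fosb, an immediate early transcription factor, at 82.6 CPM, where the other 5 libraries lay between 2.81 and 12.4 CPM. It also had low interferon-induced genes, described further on. The stress libraries differed from each other more than the control libraries did: the root mean square difference in log2 CPM was 0.486 to 0.539 within the stress group and 0.369 to 0.439 within the control group, against 0.399 to 0.597 between the groups. The SD across replicates was larger in the stress group for 69.7% of genes, with a median of 0.16 against 0.102 in controls. No pair of libraries agreed within counting noise. In bulk tissue, fewer cells of a type and less RNA per cell cannot be told apart.

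**Figure D1:**
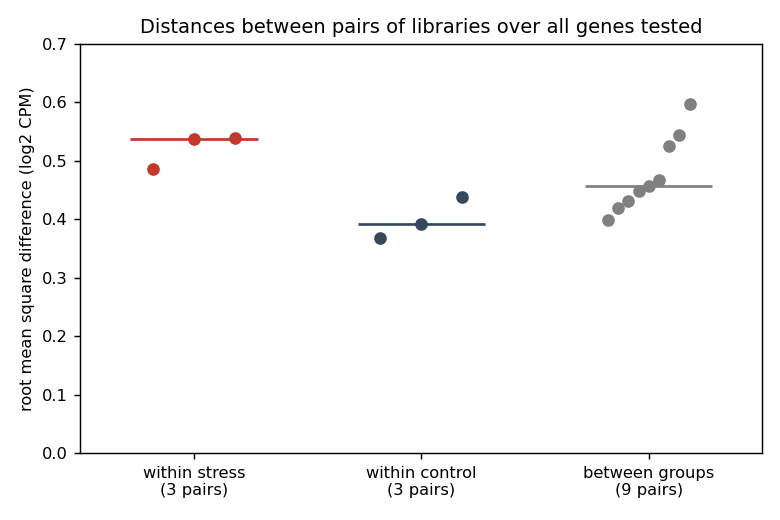
Root mean square difference in log2 CPM over the 13453 genes tested (vertical axis) for the 3 pairs of stress libraries, the 3 pairs of control libraries and the 9 pairs across the groups; each point is a pair and each line the median. The medians are 0.538 within stress, 0.392 within control and 0.458 between the groups, so the median across the groups lies between the within-group medians.

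Across 13453 genes tested by edgeR's quasi-likelihood test, 0 (0%) differed between stress and control tumours at a Benjamini-Hochberg adjusted p under 0.05, and the smallest adjusted p was 0.9999. An unadjusted p under 0.05 was reached by 383 genes (2.85%), of which 148 (1.1%) lay higher and 235 (1.75%) lower under stress. That is fewer than the 673 genes expected at this threshold if no gene differed. DESeq2 called 1 of 13429 genes (0.00745%), Mgat3, and limma-voom called 0. With only the 6 libraries in the fit, edgeR called 0 of 13132 genes, with 1051 (8%) at an unadjusted p under 0.05. The 3 stress values did not overlap the 3 control values for 1896 genes (14.1%), 952 of them higher (7.08%) and 944 lower (7.02%) under stress. Most differences were small: the middle 90 percent of genes lay between -0.42 and 0.42, and 281 genes differed by at least 1 in absolute log2 fold change, 118 of them without overlap. The values that follow describe genes and groups of genes that did not pass the test.

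Of the receptors through which stress hormones act, the glucocorticoid receptor was detected in all 6 libraries. Nr3c1, the glucocorticoid receptor, stood at 114, 126 and 115 CPM in the stress tumours, against 111, 107 and 109 CPM in the controls. These values were close together and did not overlap. Hsd11b1, which regenerates active glucocorticoid inside cells, stood at 3.5, 2.56 and 1.95 CPM in the stress tumours, against 1.99, 2.09 and 1.56 CPM in the controls, and its groups overlapped. Among the beta-adrenergic receptors, Adrb1, the beta-1 receptor, ran from 0.175 to 0.467 CPM under stress and from 0.18 to 0.523 CPM in controls, and Adrb3, the beta-3 receptor, reached 0.0573 CPM in 1 stress library and 0.0586 CPM in 1 control library. Of 13 receptor and hormone-activating genes in the tables, 5 had enough counts to be tested.

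Among 24 genes known to be switched on by glucocorticoids, 19 were higher under stress, where 51.7% of all genes tested had a log2 fold change above 0. The median of the list was 0.16, against 0.01 over all genes tested, and it ran from 0.12 to 0.21 with any 1 library left out. Single members ran from -1.98 to 1.70, so the largest change in the list was a decrease. Cebpd, a factor of the C/EBP family that glucocorticoids and cytokines switch on, stood at 11, 13.8 and 18 CPM in the stress tumours, against 6.27, 6.8 and 7.15 CPM in the controls. Per1, a clock gene with glucocorticoid response elements, stood at 143, 139 and 178 CPM in the stress tumours, against 78.8, 96.5 and 107 CPM in the controls. Sgk1, a kinase whose gene is a direct target of the receptor, stood at 62.9, 66 and 129 CPM in the stress tumours, against 46.7, 53 and 50.9 CPM in the controls. In all 3 genes every stress library lay above every control library, with stress replicate 3 the highest. The log2 fold changes were 1.08 (SE 0.31) for Cebpd and 0.71 (SE 0.22) for Per1. Sgk1 differed by 0.78 (SE 0.25), and by 0.36 without stress replicate 3.

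Several other targets of the receptor overlapped between the groups. Fkbp5, a chaperone partner that feeds back on the receptor, stood at 332, 205 and 302 CPM in the stress tumours, against 306, 292 and 224 CPM in the controls. Tsc22d3, which encodes the anti-inflammatory protein GILZ, stood at 198, 287 and 232 CPM in the stress tumours, against 194, 209 and 243 CPM in the controls. For both genes the stress values spanned most of the control values. Klf9, a transcription factor and direct target, stood at 87.1, 75.5 and 91.5 CPM in the stress tumours, against 83.4, 78.1 and 86.1 CPM in the controls. The metallothionein gene Mt1, which both glucocorticoids and metals induce, stood at 119, 154 and 110.3 CPM in the stress tumours, against 148, 184 and 178 CPM in the controls, and these groups overlapped. Rgs2, a brake on G-protein signalling, had 18, 27 and 36.7 CPM in the stress tumours, all above the 11.5, 17.8 and 13.1 CPM of the controls. In the list, 3 genes higher and 0 lower had an unadjusted p under 0.05, beside 1.1% and 1.75% of all genes tested, and 4 genes were higher without overlap (16.7% of 24, against 7.08% of all genes tested).

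**Figure D2:**
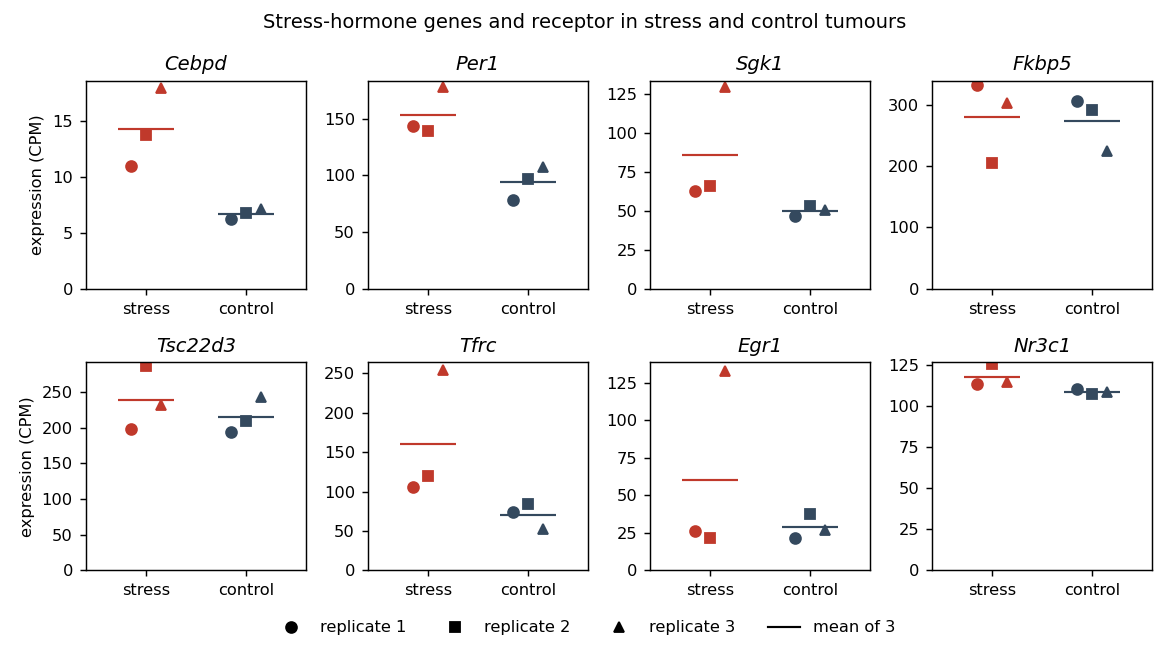
Expression in CPM (vertical axes, starting at 0) of 8 genes in the 3 stress and 3 control tumours; each point is a library, its shape gives the replicate number and the line is the mean of 3. Cebpd, Per1, Sgk1, Tfrc and Nr3c1 do not overlap between the groups, Fkbp5, Tsc22d3 and Egr1 do, and stress replicate 3 (triangle) is the highest library for Cebpd, Per1, Sgk1, Tfrc and Egr1.

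The promoters of 3 of these genes are shown because the receptor and CREB act through short DNA elements. The windows run from 250 bases before to 50 bases after a RefSeq transcription start on GRCm38.p6, and were searched on both strands for AGAACA, the core bound by 1 molecule of the glucocorticoid receptor, and for TGACG, the core of the cyclic AMP response element. The first is a window of Sgk1 on the plus strand at chr10:21993640-21993939, 1 of 6 Sgk1 windows in the table and the one with the most cores. The next is from Per1 on the plus strand at chr11:69099902-69100201, 1 of 2 windows, and the last is the single window of Fkbp5, on the minus strand at chr17:28486100-28486399. Capitals mark these cores, as AGAACA or its reverse complement TGTTCT and as TGACG.
Sgk1: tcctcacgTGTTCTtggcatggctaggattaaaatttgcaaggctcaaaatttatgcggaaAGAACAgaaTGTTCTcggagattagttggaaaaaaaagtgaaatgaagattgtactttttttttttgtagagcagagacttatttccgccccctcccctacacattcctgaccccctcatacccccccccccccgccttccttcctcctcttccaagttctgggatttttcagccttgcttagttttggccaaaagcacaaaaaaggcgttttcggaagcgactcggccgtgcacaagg
Per1: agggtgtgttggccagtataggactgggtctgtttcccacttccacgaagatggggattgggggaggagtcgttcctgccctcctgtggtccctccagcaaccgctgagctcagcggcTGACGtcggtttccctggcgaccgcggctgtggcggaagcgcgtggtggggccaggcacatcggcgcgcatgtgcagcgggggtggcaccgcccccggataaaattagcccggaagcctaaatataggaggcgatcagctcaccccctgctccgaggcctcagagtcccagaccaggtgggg
Fkbp5: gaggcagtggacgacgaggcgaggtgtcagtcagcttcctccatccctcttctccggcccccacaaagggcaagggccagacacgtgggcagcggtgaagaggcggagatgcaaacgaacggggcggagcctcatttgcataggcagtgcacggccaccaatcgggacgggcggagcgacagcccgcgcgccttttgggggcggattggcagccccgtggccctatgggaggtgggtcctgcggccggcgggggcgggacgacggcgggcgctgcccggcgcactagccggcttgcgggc
The Sgk1 window held AGAACA 189 bases and TGTTCT 180 bases before the start, which are 3 bases apart and face each other as in a full element, and 1 more TGTTCT 242 bases before it. Of the other Sgk1 windows, 1 held TGTTCT 195 bases before its start, 1 held AGAACA 13 bases before and 1 held TGACG 236 bases before. The remaining Sgk1 windows held neither core. The Per1 window held TGACG 132 bases before the start, and the other Per1 window held it 246 bases before. Neither Per1 window held AGAACA. The Fkbp5 window held neither core. Tsc22d3, whose groups also overlapped, held TGTTCT 185 bases before the start of 1 of its 3 windows and TGACG 224 bases before that of another. Over all 32851 windows in the table, 19% held AGAACA and 20.8% held TGACG, so single cores are common. Among the glucocorticoid-induced genes with a promoter in the table, 4 of 22 held AGAACA in a window and 10 of 22 held TGACG, beside 21.3% and 23% of all 27025 genes. The full cyclic AMP element TGACGTCA was held by 2 of 22, beside 2.03% of all genes. Such matches describe the letters only.

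Targets of cyclic AMP and CREB were higher under stress in 13 of 17 members, with a median of 0.23 that ran from 0.14 without control replicate 1 to 0.30 without stress replicate 1. Tfrc, the transferrin receptor that brings iron into dividing cells, stood at 106, 120.1 and 254 CPM in the stress tumours, against 74.2, 84.6 and 51.9 CPM in the controls. The groups did not overlap, and the highest value was that of stress replicate 3. Tfrc differed by 1.19 (SE 0.37), and by 0.69 without that library. Prkar2b, a regulatory subunit of protein kinase A, stood at 31.7, 16.5 and 46.6 CPM in the stress tumours, against 15.9, 16.7 and 15.6 CPM in the controls, with stress replicate 2 inside the control range. Prkar2b differed by 0.98 (SE 0.33), and by 0.58 without stress replicate 3. Nr4a2, an orphan nuclear receptor induced by cyclic AMP, stood at 8.22, 8.63 and 11.8 CPM in the stress tumours, against 7.38, 6.8 and 7.33 CPM in the controls, and differed by 0.41 (SE 0.19), or 0.23 without stress replicate 3. Sik1, a kinase that CREB induces and that then restrains CREB, stood at 53.7, 66 and 52.5 CPM in the stress tumours, against 44.3, 51.9 and 47.6 CPM in the controls, without overlap. Crem, which encodes an inducible repressor of the same elements, stood at 9.33, 10.5 and 7.05 CPM in the stress tumours, against 8.67, 8.54 and 8.11 CPM in the controls, with overlap. Nr4a1 stood at 10.2, 8.63 and 23.6 CPM in the stress tumours, against 9.9, 12.7 and 9.49 CPM in the controls, with overlap. Nr4a1 differed by 0.40 (SE 0.35), or -0.19 without stress replicate 3. The list held 3 genes of 17 that were higher without overlap and 0 that were lower, beside 7.08% and 7.02% of all genes tested. Its highest log2 fold change, 2.26, was also the highest of the immediate early list described below, so the lists share members.

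Scores of a list, the mean of its members' log2 CPM after centring each gene over the 6 libraries, kept the groups apart for 6 of 52 lists. Among single genes, 14.1% of all genes tested did not overlap, so such a separation was not particular to these lists. The stress libraries lay above the controls for the glucocorticoid, cyclic AMP and iron handling lists. They lay below for the TGF-beta, heat shock and mesenchymal transition lists. The iron handling list had a median of 0.04, and -0.03 without stress replicate 2. Tfrc belongs to both the cyclic AMP and the iron handling lists. The glucocorticoid scores were 0.09, -0.02 and 0.23 in the stress libraries and -0.06, -0.08 and -0.15 in the controls. The cyclic AMP scores were -0.01, 0.05 and 0.42 in the stress libraries and -0.26, -0.04 and -0.16 in the controls. In both, stress replicate 3 had the highest score. Across all 850 list members tested, 37 (4.35%) had an unadjusted p under 0.05, beside 2.85% of all genes, and 111 (13.1%) did not overlap, beside 14.1% of all genes. The lists were chosen with earlier results of these data known and hold genes with small p, such as Mgat3 and Card10. Their shares are therefore not independent of the data.

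**Figure D3:**
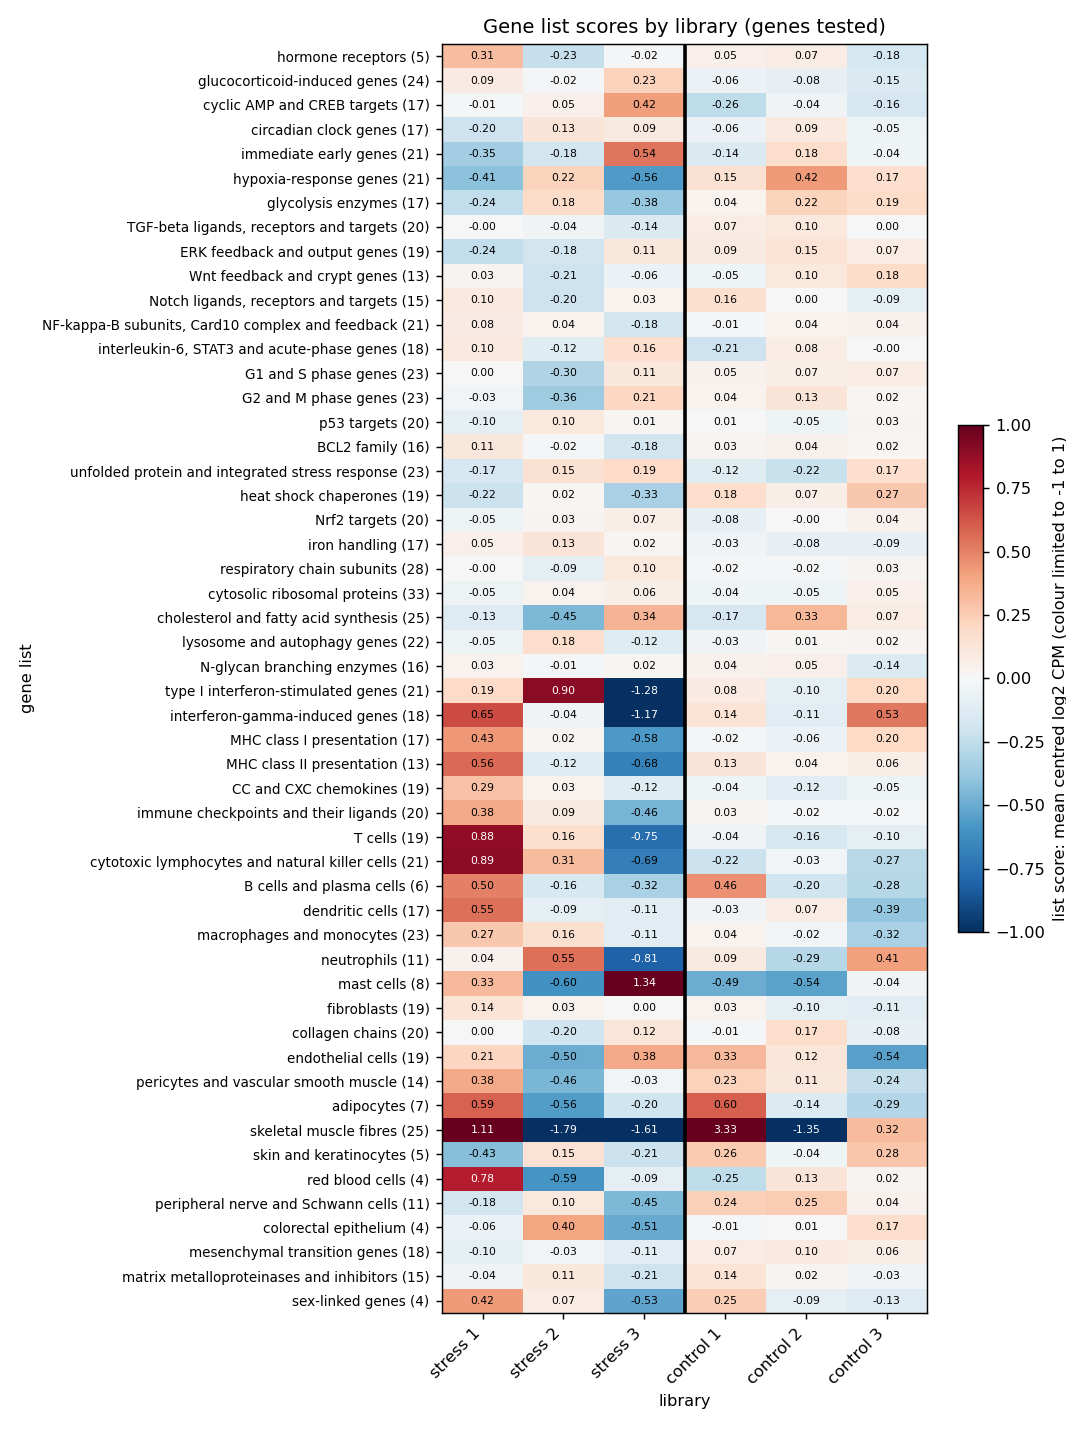
Scores of 52 gene lists (rows, with the number of genes tested in brackets) in the 3 stress libraries (left) and 3 control libraries (right), as mean centred log2 CPM with red above and blue below the mean of the 6 libraries. Stress replicate 1 is high for T cells (0.88) and stress replicate 3 is low (-0.75), while skeletal muscle is high in control replicate 1 (3.33).

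Some immediate early genes, the first to answer growth factors and many other stimuli, separated stress replicate 3 from the other 5 libraries rather than the groups. Egr1, a zinc finger transcription factor, stood at 26.2, 21.4 and 133 CPM in the stress tumours, against 21.8, 37.8 and 26.9 CPM in the controls. Fos, a partner of Jun in the AP-1 factor, stood at 12.1, 7.17 and 76 CPM in the stress tumours, against 10.8, 34.5 and 13.8 CPM in the controls. Fosb stood at 5.66, 4.25 and 82.6 CPM in the stress tumours, against 2.81, 12.4 and 4.08 CPM in the controls. In each of these genes stress replicate 3 had the highest value and stress replicates 1 and 2 lay within or near the control range. The list median was -0.01, and -0.25 without stress replicate 3. Ier5, an immediate early gene that regulates heat shock factor 1, stood at 65.1, 61.4 and 68.2 CPM in the stress tumours, against 76.7, 75.5 and 76.7 CPM in the controls, lower without overlap. Egr3 stood at 4.9, 7.23 and 6.13 CPM in the stress tumours, against 10.8, 10.5 and 6.49 CPM in the controls, with overlap. Egr3 differed by -0.61 (SE 0.30), and neither Ier5 nor Egr3 was high in stress replicate 3.

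Other clock genes lay on either side of the controls. Per2, the paralogue of Per1, stood at 18.1, 24.3 and 21.7 CPM in the stress tumours, against 14.1, 17.5 and 15.7 CPM in the controls, without overlap. Bhlhe40 and Bhlhe41 are repressors of the clock that hypoxia also induces. Bhlhe40 stood at 54.8, 70.8 and 49.4 CPM in the stress tumours, against 83.3, 119 and 73 CPM in the controls, lower without overlap, and Bhlhe41 at 16.8, 22 and 19.6 CPM in the stress tumours, against 24.1, 33.9 and 20.5 CPM in the controls, with overlap. Bhlhe41 differed by -0.43 (SE 0.18), or -0.19 without control replicate 2. Arntl, which encodes the activator BMAL1, stood at 39.8, 44.5 and 36.4 CPM in the stress tumours, against 44.8, 44.3 and 48.2 CPM in the controls, with overlap. The 17 clock genes tested were higher in 8 and lower in 9 cases.

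The genes with the smallest unadjusted p were taken up to 12 in each direction, provided that the groups did not overlap and that FPKM averaged at least 1 in the higher of them. None of them passed the adjusted threshold. Those higher under stress included Arhgef28, Lrp4, Amigo2 and Adamts5. Arhgef28, an exchange factor for RhoA, stood at 19.4, 8.86 and 26.6 CPM in the stress tumours, against 6.5, 6.22 and 6.49 CPM in the controls, and differed by 1.52 (SE 0.42). Lrp4, a co-receptor that modulates Wnt and agrin signalling, stood at 10.8, 7.46 and 19.5 CPM in the stress tumours, against 4.92, 6.39 and 5.28 CPM in the controls, and differed by 1.19 (SE 0.34), or 0.72 without stress replicate 3. Amigo2, a cell adhesion protein, stood at 179, 118 and 257 CPM in the stress tumours, against 103, 104 and 110.3 CPM in the controls, and differed by 0.80 (SE 0.25), or 0.49 without stress replicate 3. In these 3 genes the control values lay closer together than the stress values, and stress replicate 3 was the highest library. Adamts5, a protease that cleaves the proteoglycan aggrecan, stood at 25, 16.3 and 32.4 CPM in the stress tumours, against 10.1, 10.2 and 8.59 CPM in the controls, and its log2 fold change was 1.35 (SE 0.41). Adamts1, a related protease that cleaves versican and is not among these 12 genes, stood at 113, 114 and 132 CPM in the stress tumours, against 70.9, 63.4 and 56.3 CPM in the controls, with a log2 fold change of 0.91 (SE 0.31). Both proteases were higher in every stress library than in any control.

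The other genes higher under stress included Kif7, Mex3b, Slc17a9, Pf4, Hcst and Cd300ld5. Kif7, a kinesin that controls Hedgehog signalling in the primary cilium, stood at 20.1, 18.4 and 21.6 CPM in the stress tumours, against 12.6, 15.2 and 15.1 CPM in the controls (log2 fold change 0.49). Mex3b, an RNA-binding protein, stood at 15.6, 14.6 and 19.6 CPM in the stress tumours, against 12.1, 11.9 and 9.73 CPM in the controls (0.57 on the log2 scale). Slc17a9, a transporter that loads ATP into vesicles, stood at 5.19, 3.85 and 4.12 CPM in the stress tumours, against 2.75, 2.03 and 2.64 CPM in the controls (0.82 on the log2 scale). Slc17a9 was highest in stress replicate 1, and Kif7 and Mex3b in stress replicate 3. Pf4, a chemokine of platelets and megakaryocytes that macrophages also express, stood at 13.2, 18.3 and 12 CPM in the stress tumours, against 9.66, 7.67 and 9.55 CPM in the controls, with a log2 fold change of 0.69 (SE 0.21). Hcst, which encodes DAP10, the adaptor of the lymphocyte receptor NKG2D, had 12, 13 and 11 counts in the stress tumours and 4, 4 and 3 counts in the controls, a log2 fold change of 1.66 (SE 0.46). Cd300ld5, a member of a cluster of similar myeloid receptor genes, stood at 3.09, 1.57 and 2.64 CPM in the stress tumours, against 0.82, 0.523 and 0.42 CPM in the controls, with 2.04 (SE 0.62) on the log2 scale. Hcst rests on few counts, and reads of Cd300ld5 may be shared with its close relatives.

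Among the genes lower under stress, Mgat3 had the smallest unadjusted p in the table, 0.000176. Mgat3 lies on chromosome 15 from 80173651 to 80215519 (GRCm38.p6) and encodes the transferase that puts a bisecting sugar on N-glycans and so blocks further branching. It stood at 102, 108 and 126 CPM in the stress tumours, against 154, 155 and 188 CPM in the controls, and differed by -0.56 (SE 0.11). Every stress library lay below every control, and the difference ran from -0.66 to -0.46 with any 1 library left out. The enzymes that build N-glycans, Mgat3 among them, did not share 1 direction: of 16 tested, 8 were higher and 8 lower. Mgat2, which acts at an earlier branching step, stood at 115, 97.7 and 127 CPM in the stress tumours, against 94.3, 95.2 and 83.8 CPM in the controls (log2 fold change 0.31). Man1a, a mannosidase that trims the glycan, stood at 33.1, 36.2 and 33.6 CPM in the stress tumours, against 26.2, 26.4 and 21.1 CPM in the controls (log2 fold change 0.48). Fut8, which adds the core fucose, stood at 40.6, 42.8 and 40.3 CPM in the stress tumours, against 51.1, 52.2 and 50.2 CPM in the controls (log2 fold change -0.31). Mgat2 and Man1a were higher and Fut8 lower, each without overlap. Mgat5, the enzyme that makes a branch that bisection blocks, stood at 45.3, 47.5 and 46.2 CPM in the stress tumours, against 48.3, 52.8 and 38.9 CPM in the controls, with overlap.

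The lower genes also included Card10, Rasgef1a and Rap1gap2, which act in signalling. Card10, on chromosome 15 from 78775123 to 78803072, encodes a scaffold that joins receptors to Bcl10 and Malt1 and so to NF-kappa-B. It stood at 8.69, 13.1 and 7.39 CPM in the stress tumours, against 20.8, 18.9 and 24.7 CPM in the controls, and differed by -1.15 (SE 0.25). Rasgef1a, an exchange factor for Ras-family proteins, stood at 1.92, 2.62 and 1.37 CPM in the stress tumours, against 5.21, 4.88 and 6.31 CPM in the controls, and differed by -1.47 (SE 0.32). Rap1gap2, which switches off Rap1, stood at 43.4, 39 and 29.8 CPM in the stress tumours, against 69.9, 67.8 and 66.7 CPM in the controls, and differed by -0.86 (SE 0.24). In these genes stress replicate 3 was the lowest library. Bcl10, a partner of Card10, stood at 63.3, 63.1 and 68.9 CPM in the stress tumours, against 64.2, 66.8 and 68.8 CPM in the controls. Malt1, the protease of the same complex, stood at 36.6, 30.0 and 22.1 CPM in the stress tumours, against 33, 35.2 and 33.3 CPM in the controls. Both genes overlapped between the groups. Of 21 NF-kappa-B genes tested, 13 were higher and 8 lower. Dlx3, a homeobox factor, stood at 34.7, 42.2 and 34.9 CPM in the stress tumours, against 55.9, 62.6 and 53.1 CPM in the controls (-0.62 on the log2 scale), and Plekha6, a protein with a pleckstrin homology domain, at 161, 219 and 136 CPM in the stress tumours, against 305, 310.0 and 299 CPM in the controls (log2 fold change -0.82). Ifitm1, an interferon-induced membrane protein, stood at 52.5, 61.4 and 49.7 CPM in the stress tumours, against 79.4, 81.9 and 98.1 CPM in the controls (log2 fold change -0.67), which was lower in all stress libraries.

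The other lower genes were Ncam1, Ntn4, Mical2, Fam20a and Tceal9. Ncam1, the neural cell adhesion molecule, on chromosome 9 from 49502129 to 49799393, stood at 14.1, 28.6 and 10.2 CPM in the stress tumours, against 40.3, 58.7 and 35.1 CPM in the controls, and differed by -1.34 (SE 0.35). The stress values were spread widely but all lay below the controls. Ntn4, a netrin of basement membranes, stood at 7.35, 7.46 and 7.16 CPM in the stress tumours, against 14.1, 11 and 14.2 CPM in the controls (-0.84 on the log2 scale). Mical2, an enzyme that oxidises actin, stood at 123, 146 and 122 CPM in the stress tumours, against 167, 165 and 166 CPM in the controls (log2 fold change -0.35). Fam20a, a pseudokinase of the secretory pathway, stood at 33.7, 44.3 and 35.3 CPM in the stress tumours, against 54.2, 44.8 and 60.8 CPM in the controls (log2 fold change -0.50), where stress replicate 2 nearly reached the lowest control. Tceal9 stood at 98, 117 and 97.8 CPM in the stress tumours, against 129, 142 and 136 CPM in the controls (log2 fold change -0.38). For Ntn4 the gap between the groups was wider than the range within either group.

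**Figure D4:**
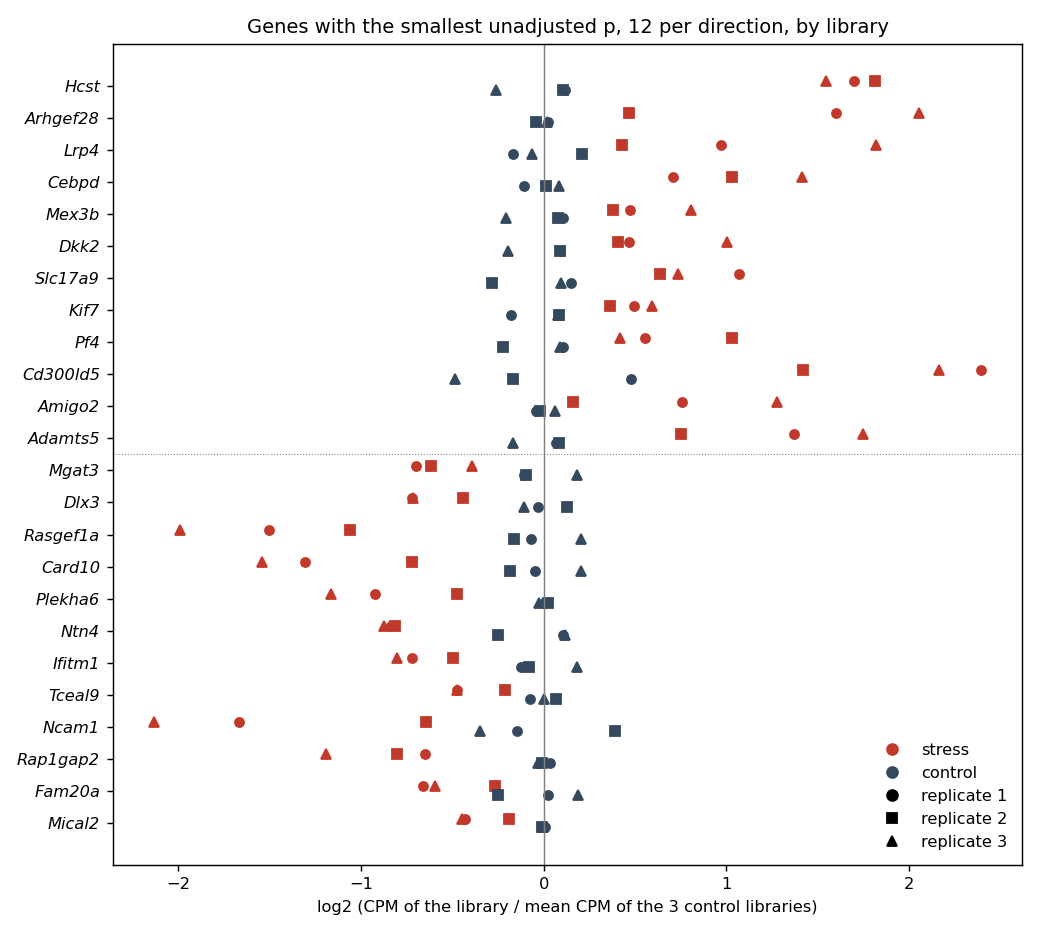
Log2 of each library's CPM over the mean CPM of the 3 control libraries (horizontal axis) for the 12 genes higher (top) and 12 genes lower (bottom) under stress with the smallest unadjusted p; red symbols, drawn above the dark control symbols in each row, are stress libraries and shapes give the replicate number. The genes were chosen for not overlapping; stress replicate 3 is the farthest stress library from the control mean in many rows, such as Arhgef28, Lrp4, Rasgef1a and Ncam1.

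TGF-beta controls matrix production and the mesenchymal state of tumour cells, and 15 of 20 list members lay lower under stress, with a median of -0.17 (-0.20 to -0.14 with any 1 library left out). Of the ligands, Tgfb1 stood at 57.6, 62.9 and 54.1 CPM in the stress tumours, against 61.6, 65.6 and 61.6 CPM in the controls, with overlap. Of the receptors, Tgfbr3, the co-receptor betaglycan, stood at 65, 65.9 and 105 CPM in the stress tumours, against 43.2, 47.7 and 32.3 CPM in the controls, higher without overlap, with a log2 fold change of 0.94 (SE 0.37). Pmepa1, a target that feeds back on the pathway, stood at 143, 129.9 and 113 CPM in the stress tumours, against 175, 187 and 167 CPM in the controls, and its log2 fold change was -0.45 (SE 0.15). Id1, a target of the BMP branch, stood at 7.87, 6.18 and 6.82 CPM in the stress tumours, against 11.6, 9.59 and 9.61 CPM in the controls, with a log2 fold change of -0.56 (SE 0.25). Both targets were lower in each stress library than in any control. Ltbp2, a matrix protein related to the TGF-beta binding proteins, stood at 300.2, 342 and 190.0 CPM in the stress tumours, against 391, 396 and 348 CPM in the controls (log2 fold change -0.45, or -0.24 without stress replicate 3). Tgfbi, a secreted matrix protein named for its induction by TGF-beta, stood at 443, 519 and 415 CPM in the stress tumours, against 499, 639 and 554 CPM in the controls (log2 fold change -0.30), with overlap. The list held 6 genes lower and 1 higher without overlap, where 7.02% and 7.08% of all genes tested did so.

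Matrix and mesenchymal genes lay in both directions. Fn1, fibronectin, stood at 1117, 1130.0 and 1817 CPM in the stress tumours, against 930.4, 1030.5 and 947 CPM in the controls, and differed by 0.48 (SE 0.21), or 0.21 without stress replicate 3. Col3a1, the chain of type III collagen, stood at 9233, 9295 and 11983 CPM in the stress tumours, against 5926, 6722 and 4946 CPM in the controls. Dcn, the proteoglycan decorin of fibroblasts, stood at 290.4, 553 and 356 CPM in the stress tumours, against 244, 245 and 138 CPM in the controls. These 3 matrix genes were higher under stress without overlap, but Col3a1 differed by 0.79 (SE 0.57) and Dcn by 0.94 (SE 0.65). Col1a1, a chain of type I collagen, stood at 421, 185 and 562 CPM in the stress tumours, against 267, 315 and 241 CPM in the controls, with overlap. Tnc, the matrix glycoprotein tenascin C, stood at 44.9, 17.7 and 36.7 CPM in the stress tumours, against 92, 85.4 and 76.7 CPM in the controls. Postn, periostin, stood at 97.7, 60.6 and 82.4 CPM in the stress tumours, against 159, 122 and 134 CPM in the controls. Lox, the enzyme that crosslinks collagen, stood at 11.1, 2.86 and 5.1 CPM in the stress tumours, against 20.3, 17.5 and 18.4 CPM in the controls. Tnc, Postn and Lox were lower without overlap. The mesenchymal list had 11 of 18 genes lower and a median of -0.12, the fibroblast list higher in 12 of 19 with 0.16, or 0.06 without control replicate 3, and the collagen list higher in 9 of 20 with -0.11, or 0.04 without control replicate 2. The fibroblast markers summed to 3842 to 4904 CPM in the stress tumours and 3468 to 3744 CPM in the controls, and 0 of the 19 markers were at 0 in all libraries. The part of fibroblast content in the matrix values was not tested.

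Output of the growth factor pathway through ERK was read from 19 genes, of which 15 were lower, with a median of -0.25 (-0.28 without stress replicate 3 to -0.14 without stress replicate 1). The list held 9 genes lower and 1 higher without overlap, beside 7.02% and 7.08% of all genes tested. The scores of the list overlapped, at -0.24, -0.18 and 0.11 in the stress libraries and 0.09, 0.15 and 0.07 in the controls. Dusp6, the phosphatase that switches ERK off, stood at 89.1, 83.3 and 87.2 CPM in the stress tumours, against 134, 97.3 and 104 CPM in the controls. Etv4, a transcription factor of the pathway, stood at 33.8, 39.9 and 39 CPM in the stress tumours, against 51.9, 50.8 and 55.2 CPM in the controls. Ccnd1, cyclin D1, stood at 963, 844 and 908 CPM in the stress tumours, against 1088, 1102 and 1087 CPM in the controls. All were lower in every stress library. Phlda1, another feedback gene, stood at 17, 21.1 and 19.3 CPM in the stress tumours, against 27.8, 28.4 and 28.3 CPM in the controls, and differed by -0.56 (SE 0.24). Spry2, an inhibitor of the pathway, stood at 40.5, 38.9 and 47 CPM in the stress tumours, against 35.2, 35.4 and 30.6 CPM in the controls, which was higher without overlap. Egr1, a target of the same pathway, was highest in stress replicate 3, as given above.

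Wnt signalling is the pathway by which most colorectal cancers start. Dkk2, a secreted Wnt antagonist, stood at 161, 155 and 234 CPM in the stress tumours, against 124, 124 and 102 CPM in the controls, and differed by 0.65 (SE 0.19), or 0.43 without stress replicate 3. Sox9, a transcription factor of intestinal progenitors and a Wnt target, stood at 110.4, 132 and 101 CPM in the stress tumours, against 167, 193 and 147 CPM in the controls, and differed by -0.57 (SE 0.17). Dkk2 was higher and Sox9 lower in each stress library. Axin2, the usual feedback readout of the pathway, stood at 0.525, 0.874 and 0.974 CPM in the stress tumours, against 0.468, 1.22 and 1.5 CPM in the controls, with overlap. Lgr5, the marker of intestinal stem cells, reached 0.0586 CPM in 1 control and 0 elsewhere. The list had 5 genes higher and 8 lower of 13 tested.

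Genes of DNA replication were lower in 21 of 23 cases and those of mitosis in 21 of 23, with medians of -0.09 and -0.09. The sign rested on stress replicate 2: without it the medians were 0.03 for replication and 0.05 for mitosis, and without stress replicate 3 they were -0.21 and -0.23. Mki67, the Ki-67 proliferation marker, stood at 696, 544 and 808 CPM in the stress tumours, against 701, 813 and 665 CPM in the controls. Its groups overlapped. Pola1, the catalytic subunit of DNA polymerase alpha, stood at 95.7, 96.6 and 93.5 CPM in the stress tumours, against 134, 135 and 127 CPM in the controls. E2f1, a transcription factor that starts S phase, stood at 51.3, 51.3 and 49.1 CPM in the stress tumours, against 58.7, 64.1 and 66.2 CPM in the controls. Both were lower without overlap, in all 3 stress libraries.

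Of the hypoxia-induced genes, 20 of 21 lay lower under stress, and their median was -0.40, running from -0.78 without stress replicate 2 to -0.20 without stress replicate 1. Ankrd37, a small ankyrin repeat protein induced by HIF-1, stood at 5.54, 8.1 and 5.38 CPM in the stress tumours, against 12, 17.1 and 8.47 CPM in the controls, and differed by -0.98 (SE 0.41). Its groups did not overlap. Slc2a1, the glucose transporter GLUT1, stood at 52.8, 133 and 54.1 CPM in the stress tumours, against 114, 159 and 129.8 CPM in the controls. Car9, the carbonic anhydrase of hypoxic tumours, stood at 12.1, 19.6 and 9.91 CPM in the stress tumours, against 14, 29.8 and 14.6 CPM in the controls. For Slc2a1 and Car9, stress replicates 1 and 3 lay below all controls, and stress replicate 2 lay within the control range. The scores of the list were -0.41, 0.22 and -0.56 in the stress libraries and 0.15, 0.42 and 0.17 in the controls. Hk2, the hexokinase that starts glycolysis, stood at 52.5, 65.3 and 40.7 CPM in the stress tumours, against 84.6, 93.4 and 65.9 CPM in the controls, lower without overlap, and the glycolysis list had 16 of 17 genes lower and a median of -0.22, or -0.45 without stress replicate 2.

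Of the heat shock chaperones, 16 of 19 lay lower under stress, and their median was -0.13, or -0.22 without control replicate 2. The list held 0 genes lower without overlap, beside 7.02% of all genes tested. Hspa1b, an inducible HSP70, stood at 46.1, 124 and 37.1 CPM in the stress tumours, against 91.7, 141 and 192 CPM in the controls, where stress replicate 2 overlapped the controls. Hspa1a and Hspa1b are near-identical copies, so the split of reads between them is uncertain. Xbp1, a transcription factor of the unfolded protein response, stood at 115, 106 and 109.9 CPM in the stress tumours, against 90.9, 87.5 and 94.8 CPM in the controls, higher without overlap, with a log2 fold change of 0.28 (SE 0.10). Hspa5, the chaperone BiP and main target of that response, stood at 993, 969.8 and 949 CPM in the stress tumours, against 927, 997 and 1005 CPM in the controls, with overlap. Bcl2, the inhibitor of apoptosis, stood at 38.7, 24.4 and 33.5 CPM in the stress tumours, against 25.1, 23.9 and 22.8 CPM in the controls, and differed by 0.43 (SE 0.19), or 0.27 without stress replicate 1. In iron handling, Hfe, which binds the transferrin receptor, stood at 32.6, 31.9 and 30.4 CPM in the stress tumours, against 23.1, 21.8 and 21.6 CPM in the controls, higher without overlap.

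T cell and cytotoxic genes varied more within the stress group than within the control group. T cell scores were 0.88, 0.16 and -0.75 in the stress libraries and -0.04, -0.16 and -0.10 in the controls. Cd8a, a chain of the cytotoxic T cell co-receptor, stood at 31.6, 15.6 and 8.59 CPM in the stress tumours, against 15.6, 11.2 and 12.4 CPM in the controls. Gzmb, granzyme B of killer cells, stood at 29.3, 29 and 5.56 CPM in the stress tumours, against 12.6, 16.4 and 16.9 CPM in the controls. Stress replicate 1 was the highest library for Cd8a and stress replicate 3 the lowest for both genes. The 21 cytotoxic genes tested had a log2 fold change above 0 in 21 cases, with a median of 0.43, but the median was -0.01 without stress replicate 1. The T cell median was 0.34, and -0.18 without stress replicate 1 or 0.70 without stress replicate 3. The dendritic cell median was 0.41, and -0.04 without stress replicate 1. Fasl, a death ligand of killer cells, stood at 3.85, 1.05 and 0.802 CPM in the stress tumours, against 1.05, 0.639 and 0.54 CPM in the controls, and differed by 1.34 (SE 0.59), or 0.31 without stress replicate 1. The T cell markers summed to 67 to 205 CPM in the stress tumours and 99.3 to 111 CPM in the controls, with 0 of 19 at 0 in all libraries.

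Interferon-stimulated genes also set the stress libraries apart from each other. Ifit1, an antiviral protein induced by type I interferon, stood at 21.7, 72.9 and 4.47 CPM in the stress tumours, against 20.4, 18.1 and 25.6 CPM in the controls. Gbp2, a GTPase induced by interferon gamma, stood at 466, 292 and 117 CPM in the stress tumours, against 375, 336 and 583 CPM in the controls. The controls stayed within a narrow range for Ifit1, while stress replicate 2 was high and stress replicate 3 low. The type I list had a median of 0.15, and -0.41 without stress replicate 2 or 0.49 without stress replicate 3. The interferon gamma list had a median of -0.11, and 0.21 without stress replicate 3 or -0.57 without stress replicate 1. For MHC class II, which presents antigen, the scores were 0.56, -0.12 and -0.68 in the stress libraries and 0.13, 0.04 and 0.06 in the controls.

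Macrophage markers were higher in 18 of 23 members, with a median of 0.28 (0.17 without stress replicate 2 to 0.43 without stress replicate 3), and summed to 1785 to 2983 CPM in the stress tumours and 1948 to 2269 CPM in the controls, with 0 of 23 at 0 in all libraries. Adgre1, the receptor F4/80, stood at 44.7, 88.6 and 45.6 CPM in the stress tumours, against 33.5, 35.6 and 24.4 CPM in the controls, and differed by 0.93 (SE 0.38), or 0.53 without stress replicate 2. Folr2, a folate receptor of tissue-resident macrophages, stood at 3.73, 6.06 and 4.35 CPM in the stress tumours, against 2.99, 1.98 and 2.04 CPM in the controls, and differed by 1.01 (SE 0.42). Mrc1, the mannose receptor, stood at 115, 99.4 and 129 CPM in the stress tumours, against 93, 81.4 and 42.3 CPM in the controls. These 3 were higher without overlap. Csf1r, the receptor for the macrophage growth factor, stood at 131, 119 and 113 CPM in the stress tumours, against 103, 116 and 89.4 CPM in the controls, and Arg1, arginase of suppressive myeloid cells, at 95.9, 141 and 16.4 CPM in the stress tumours, against 165, 101 and 117 CPM in the controls. Both overlapped, and Arg1 was lowest in stress replicate 3. Pf4 and Cd300ld5, named above, are also expressed by myeloid cells, and the part of macrophage content in their values was not tested.

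Mast cell genes were high in stress replicate 3. The 14 markers summed to 119.5 to 205 CPM in the stress tumours and 141 to 207 CPM in the controls with 0 at 0 in all libraries, most of it from Il1rl1, at 109.6, 104 and 164 CPM in the stress tumours, against 191, 128 and 152 CPM in the controls. Cpa3, a mast cell carboxypeptidase, stood at 1.22, 0.117 and 5.21 CPM in the stress tumours, against 0.117, 0.174 and 0.601 CPM in the controls, and differed by 2.86 (SE 1.29), or 1.16 without that library. Cma1, a chymase, stood at 0.758, 0.117 and 4.58 CPM in the stress tumours, against 0.293, 0.174 and 0.48 CPM in the controls, and differed by 2.51 (SE 1.13), or 0.46 without it. Cxcl1, a chemokine that attracts neutrophils, stood at 2.04, 2.21 and 13.3 CPM in the stress tumours, against 1.46, 3.02 and 1.56 CPM in the controls, and differed by 1.53 (SE 0.66), or 0.07 without it. The same library held Krt5, a keratin of basal skin cells, at 5.61 CPM, where the other 5 had 0. Krt14, the partner keratin of Krt5, stood at 176, 287 and 165 CPM in the stress tumours, against 355, 313 and 351 CPM in the controls, lower without overlap, and differed by -0.70 (SE 0.28). The 17 skin markers summed to 208 to 329.5 CPM in the stress tumours and 349 to 396 CPM in the controls, with 5 tested, and Krt14 carried most of that sum. Cspg4, the proteoglycan NG2 of pericytes and some tumour cells, stood at 160.4, 228 and 149 CPM in the stress tumours, against 255, 299.6 and 226 CPM in the controls, and differed by -0.54 (SE 0.19), while Rgs5, the usual pericyte marker, stood at 33.1, 14.8 and 29.8 CPM in the stress tumours, against 20.1, 31.6 and 17.4 CPM in the controls. Sox10, which defines Schwann cells, reached at most 0.0573 CPM under stress and 0.18 CPM in controls, beside the lower Ncam1 in the stress group.

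**Figure D5:**
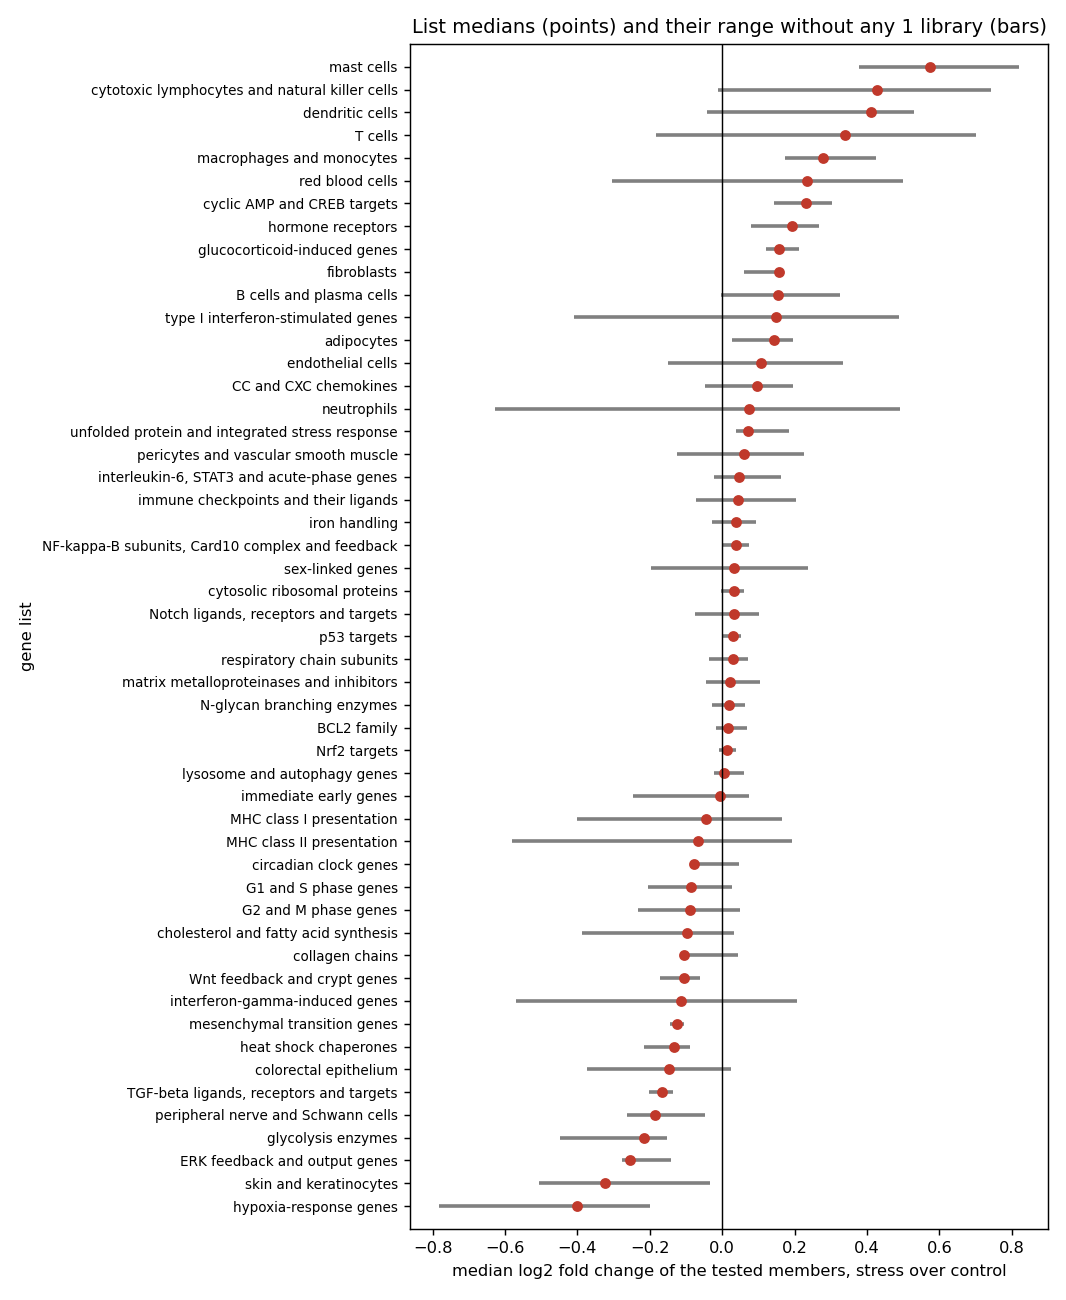
Median log2 fold change of stress over control (horizontal axis) of the tested members of 51 gene lists, leaving out skeletal muscle; points are medians with all 6 libraries and bars span the medians with any 1 library left out. The glucocorticoid (0.16), cyclic AMP (0.23), TGF-beta (-0.17), ERK (-0.25) and hypoxia (-0.40) bars stay on 1 side of 0, while the T cell, type I interferon and neutrophil bars cross it.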

How the data were processed

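Messenger RNA was sequenced in 12 tumour libraries, per the labels from total RNA with an integrity number above 7, selected for poly(A) and made into stranded libraries. The submitters' processing notes name cutadapt 1.9, HISAT2 2.0.4, StringTie 1.3.4d, the build GRCm38.p6, and DESeq2 and edgeR without versions. The annotation and counting options are not given in the sources used here. The authors deposited an estimated count per gene, not scaled further; 11.7% to 12.5% of these values were not whole, and all were rounded. FPKM as deposited is scaled for length and depth, and served to choose genes. TPM as deposited sums to the same total in each library and served only to check units. Of 17875 genes, 17820 matched the reference table, and 26 symbols turned into dates were restored.

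Genes were kept with filterByExpr at a minimum count of 10, TMM factors were used, and edgeR 4.0.16 in R 4.3.3 fitted all 12 libraries in 1 model of 4 groups with 8 residual degrees of freedom, robust, 2-sided, with Benjamini-Hochberg adjustment over 13453 genes. The median SE was 0.164. The pipeline was tested on simulated data. Values per library are CPM, and list scores use log2 CPM with a prior count of 2. Of the entries in 52 lists, 1005 matched by symbol and 4 by synonym, and 30 were absent. Named genes were up to 12 per direction by unadjusted p (mean FPKM of at least 1, no overlap), fixed marker genes of each list, and each list's member with the smallest unadjusted p. Some genes that this rule names are not reported here. Other genes named (Arntl, Bhlhe40, Bhlhe41, Car9, Ccnd1, Cdh1, Fasl, Folr2, Fosb, Fut8, Hfe, Hspa1b, Id1, Ier5, Il1rl1, Klf9, Lox, Ltbp2, Man1a, Mgat2, Mrc1, Mt1, Nr4a2, Per2, Pola1, Postn, Prkar2b, Rgs2, Sik1, Slc2a1, Spry2, Tgfbi, Tgfbr3 and Tnc, and Car1, Cldn4, Fabp1, Guca2a, Krt18, Adrb1, Adrb3, Lgr5) were chosen after their values were seen. The lists, tests and genes were chosen with earlier results of these data known.

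Promoter windows were taken from a RefSeq table of GRCm38.p6. Alternatives were a minimum count of 50, no filter, RLE factors, a fit of the 6 libraries alone, DESeq2 1.42.0, voom of limma 3.58.1 with quality weights, the replicate number as a block, each library left out, the skeletal muscle score as a covariate, and removal of each library's trend with gene length by loess with a span of 0.3. Replicate numbers were not used for pairing, since no label pairs the animals.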

Additional observations from a re-analysis of the deposited data

How the results depend on the processing

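The count of 0 genes at an adjusted p under 0.05 was also 0 in edgeR with a minimum count of 50, no filter, RLE factors, the 6 libraries alone, the replicate block, the muscle covariate, the length trend removed and each library left out, and in limma-voom. DESeq2 gave 1. The smallest adjusted p ran from 0.0143 with DESeq2 and 0.0663 with limma-voom to 1. Leaving out a library left 228 to 735 genes at an unadjusted p under 0.05, against 383, with 228 without control replicate 1, 237 without control replicate 2, 247 without control replicate 3 and 735 without stress replicate 2. That count was 1051 with only the 6 libraries, 1350 with limma-voom and 91 when the log2 fold change also had to reach 1 in either direction. With the replicate block it was 377 in all 12 libraries and 990 in the 6 libraries, and the block changed no call. The deviations of stress and control libraries correlated at 0.39, 0.07 and -0.06 for replicates 1, 2 and 3. Of 12 libraries, 5 correlated best with their own number. How many would do so without pairing was not worked out, so these values do not decide whether the numbers pair the libraries. The cause of these shifts in counts was not tested.

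Of 635 log2 fold changes of 53 named genes recomputed, 1 passed the adjusted threshold, Mgat3 with DESeq2. The sign of some genes named above changed without stress replicate 3. Nr4a1 went from 0.40 to -0.19, Egr1 from 1.06 to -0.28 and Fos from 0.69 to -1.04. Of 52 list medians, 18 kept their sign in every setting. The 3 libraries a group, with a median SE of 0.164, limit the precision of each difference. Genes with a few counts, such as Hcst, rest on counting error as well.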

Other observations

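Several gene groups that bear on the growth and metabolism of the tumours had medians close to that of all genes tested, which was 0.01. The 33 cytosolic ribosomal proteins had a median of 0.03, the 28 respiratory chain subunits 0.03, the 22 lysosome and autophagy genes 0.00, the 20 Nrf2 targets of the oxidative stress response 0.01 and the 20 p53 targets 0.03. Notch genes (0.03), interleukin-6 and STAT3 genes (0.05) and immune checkpoint genes (0.04) also lay near 0, and the last had scores of 0.38 in stress replicate 1 and -0.46 in stress replicate 3. With 1 library left out, the medians of these 8 lists ran from -0.08 (Notch, without stress replicate 1) to 0.20 (checkpoints, without stress replicate 3). Genes of cholesterol and fatty acid synthesis had a median of -0.10, which was 0.03 without stress replicate 2, the library with the lowest score (-0.45), and -0.39 without stress replicate 3.

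Cell types of the vessel wall and the surrounding tissue also varied between single libraries. Endothelial scores were 0.21, -0.50 and 0.38 in the stress libraries and 0.33, 0.12 and -0.54 in the controls. Their median log2 fold change was 0.11, and -0.15 without stress replicate 3 or 0.33 without control replicate 1. Red blood cell genes had a median of 0.23, and -0.30 without stress replicate 1 or 0.50 without stress replicate 2. Neutrophil genes had a median of 0.07, and -0.63 without stress replicate 2 or 0.49 without stress replicate 3. Adipocyte genes had a median of 0.14, and 0.03 without stress replicate 2, with a score of 0.59 in stress replicate 1 and 0.60 in control replicate 1.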
